A study of Homo sapiens with 10 samples.

Results

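The 37 genes described here make, regulate, move or store cholesterol and fatty acids. They were listed by gene symbol, but with earlier results of these data known, so the list was not blind to the data. Each matched 1 of the 58302 rows of the deposited expression table. By role, 18 are enzymes of sterol synthesis, 6 are regulators of that pathway or a sterol carrier, 8 are enzymes of fatty acid synthesis and 5 act in sterol export, lipoprotein uptake or cholesteryl ester turnover. RNA sequencing was done on KYSE-410 and KYSE-30, 2 human cell lines of esophageal squamous carcinoma, harvested 48 h after small interfering RNAs (siRNAs) were delivered. One of these, siSHIP2, targets INPPL1, whose product SHIP2 is a phosphatase of the membrane lipid phosphatidylinositol trisphosphate, and the control siCT is non-targeting. KYSE-410 had 3 libraries with siCT and 3 with siSHIP2, and KYSE-30 had 2 and 2. All 4 groups were transfected, each result rests on this single siRNA against INPPL1, and each line is a single cancer line. A KYSE-410 series with another siRNA against INPPL1 was not analysed here. The labels do not say whether replicates came from separate cultures, so the p-values measure the spread between these libraries, which may be technical.

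Cells build cholesterol from acetyl-CoA through mevalonate, isoprenoid diphosphates, squalene and lanosterol. They build fatty acids from the same acetyl-CoA through malonyl-CoA, and then elongate and desaturate them. Transcription of many of these enzymes is driven by the SREBP factors (genes SREBF1 and SREBF2), membrane proteins that SCAP escorts to the Golgi when sterols are scarce and that the INSIG proteins hold back in the endoplasmic reticulum when sterols are plentiful. Liver X receptors respond to oxidised sterols and drive the export pumps ABCA1 and ABCG1 and the ubiquitin ligase MYLIP, which lowers lipoprotein uptake. PI3K and AKT signalling, in which the lipid substrate of SHIP2 acts, is known to raise SREBP activity in many cell types.

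Values are CPM (counts per 1 M counts). No read depth was given with them, and depths of 18.5 M to 25.8 M reads per library were only inferred from the spacing of the values. CPM is not corrected for gene length, so levels are compared between libraries and not between genes. A gene counted as called when its adjusted p in limma was under 0.05 over all 20466 genes tested, and all 37 genes passed the filter on low values (at least 0.5 CPM in at least 2 libraries). Fold changes are on the scale of log2(CPM + 1), which understates changes of genes at a few CPM. The targeted gene INPPL1 stood at 107, 108 and 109 CPM with siCT and 44.7, 37.3 and 39.1 CPM with siSHIP2 in KYSE-410. In KYSE-30 it stood at 39.9 and 36.2 and then 23.2 and 24.5 CPM, so knockdown left 37.4% and 62.8% of the control level. The 8 squamous markers summed to 1138 to 1187 CPM in KYSE-410 with siCT, 1415 to 1480 CPM with siSHIP2, and 1019 to 1196 and 1111 to 1133 CPM in the KYSE-30 groups. With siCT, 3 of the 8 were called higher and 5 lower in KYSE-410 than in KYSE-30. The basal keratin KRT5 averaged 13.4 CPM in KYSE-410 with siCT and was near 0 in KYSE-30 (0.2 CPM). The keratins KRT14 (0.583 against 5.02 CPM) and KRT6A (5.26 against 14.2 CPM) were lower in KYSE-410. In KYSE-410 the junction genes JUP (log2 0.47) and DSP (0.46) rose and the keratins KRT5 (-1.79) and KRT6A (-1.57) fell, as did SFN (-0.16), and TP63 fell in KYSE-30 (-0.55). Of 14 markers of other cells 6 passed the filter, namely CD68, VWF, CDH5, COL1A1, CDX2 and VIL1. Of the 3 immune markers only CD68 reached 0.5 CPM in any library. The leukocyte gene PTPRC, the T cell gene CD3E, the glandular keratin KRT20 and the collagen gene COL3A1 were at or near 0. The sums ranged over all libraries from 10.4 to 22.0 CPM for immune, 0.75 to 6.95 for endothelial, 5.997 to 17.6 for fibroblast and 10.8 to 23.4 CPM for glandular markers. The groups did not overlap for the glandular sum in KYSE-410 (12.4 to 14.5 CPM with siCT, 20.9 to 23.4 CPM with siSHIP2), the fibroblast sum in KYSE-410 (9.99 to 11.1 CPM, then 12.2 to 17.6 CPM) and the endothelial sum in KYSE-30 (4.098 to 6.95 CPM, then 3.05 to 3.498 CPM). VIL1 (0.65) and COL1A1 (0.43) rose there, while CDH5 fell in KYSE-30 (-0.61). The part of these shifts in the results below was not tested. In bulk RNA, fewer cells of a kind and less RNA per cell cannot be told apart.

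With siSHIP2 in KYSE-410, 19 of the 37 lipid genes fell and 6 rose. These are 51.4% and 16.2% of the 37, where 19.3% of all genes tested fell and 30.6% rose. Their median log2 fold change was -0.18, against 0.07 over all genes tested. The roles differed in these counts. Of the 8 fatty acid genes 7 fell and 0 rose, also by edgeR and DESeq2 and with 0 rising at an unadjusted p under 0.05, of the 18 sterol enzymes 8 fell and 1 rose, of the 6 regulators and carriers 2 fell and 3 rose, and of the 5 export and storage genes 2 fell and 2 rose. The balance of the regulators turned with the scaling, since 3 were lower and 1 was higher with TMM, with relative log expression, by edgeR and by DESeq2. The 2 lower export and storage genes became 0 with KYSE-410 fitted alone and 0 without siSHIP2 replicate 2. The libraries of the groups did not overlap for 16 genes that were lower and 8 that were higher with siSHIP2, where 22.1% and 34% of all genes had such a gap. Scaling matters for small changes in this contrast. TMM scaling lowers the median of all genes by 0.11 (a shift of -0.11 on the log2 scale), and the share of calls that are higher goes from 61.3% in the deposited scale to 43.6% with TMM, 44.9% with relative log expression and 48.7% with upper quartile scaling.

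**Figure D1:**
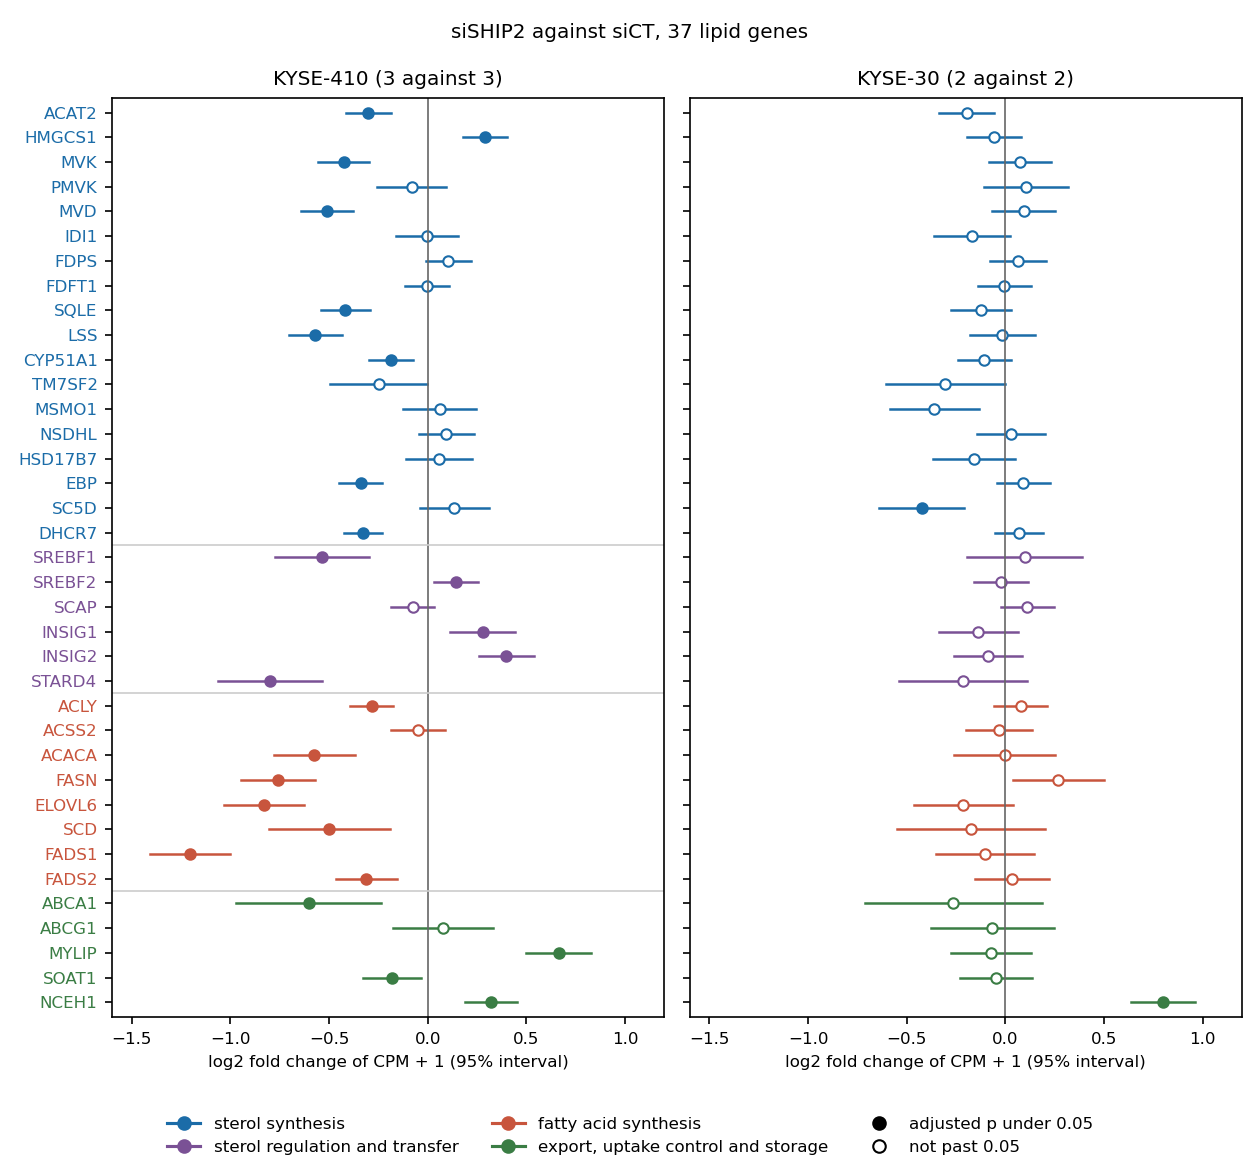
Log2 fold change of CPM + 1 with siSHIP2 against siCT for the 37 genes in KYSE-410 (left, 3 against 3 libraries) and KYSE-30 (right, 2 against 2). Points are limma estimates, bars 95% intervals, colours the roles, and filled points have an adjusted p under 0.05: 25 are filled on the left, among them 7 of the 8 fatty acid genes, all to the left of 0, and 2 are filled on the right.

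The fatty acid genes of KYSE-410 moved the most. FADS1 (ENSG00000149485, chromosome 11, 61799625 to 61829318 of GRCh38), a desaturase that makes polyunsaturated fatty acids, stood at 159, 170.0 and 163 CPM with siCT and at 84.9, 56.8 and 72.7 CPM with siSHIP2. The groups were far apart, and FADS1 fell to 43.6% of its control level (log2 -1.21, SE 0.095, limma adjusted p = 7.31e-08), the lowest of the 37 fold changes. ELOVL6, which elongates saturated fatty acids made by the synthase, went from 71.4, 81.4 and 79.2 to 50.2, 36.98 and 42.8 CPM (log2 -0.83, adjusted p = 3.28e-06 by limma). FASN (ENSG00000169710, chromosome 17, 82078333 to 82098332 of GRCh38), the synthase that builds palmitate, stood at 465, 500.1 and 473 CPM in the control libraries. With siSHIP2 the 3 libraries of FASN gave 334, 261 and 259 CPM, all below the lowest control, or 59.3% of the control mean (limma adjusted p = 3.30e-06). FASN was thus reduced in each library, but less in the first than in the other two.

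At the first committed step, too, siSHIP2 replicate 1 was the highest of the 3 knockdown libraries. ACACA, the acetyl-CoA carboxylase that makes malonyl-CoA, went from 185, 217 and 210.2 CPM to 167, 117 and 129.6 CPM (log2 -0.57, SE 0.098, limma adjusted p = 0.00014). ACLY, which splits citrate to supply acetyl-CoA, went from 313, 327 and 306 CPM to 276, 251 and 251 CPM, 82.1% of the control mean. FADS2, the desaturase that acts before FADS1 and overlaps it in the genome, went from 22.4, 23.0 and 23.0 CPM to 20.2, 16.7 and 17.8 CPM. All 3 of these fell with no overlap of libraries. SCD, which makes monounsaturated fatty acids, gave 262, 303 and 314 CPM with siCT and 278, 149.6 and 211 CPM with siSHIP2. Here the groups overlapped, because siSHIP2 replicate 1 lay within the control range. SCD was called lower (log2 -0.50, SE 0.145, limma adjusted p = 0.00907), but the call was lost with no filter and with KYSE-410 fitted alone, and the fold change was -0.71 without siSHIP2 replicate 1 and -0.27 without siSHIP2 replicate 2. ACSS2, which makes acetyl-CoA from acetate, was the only fatty acid gene without a call, at 18.5, 20.6 and 20.7 CPM and then 18.7, 19.4 and 19.5 CPM (95% interval of the log2 fold change -0.19 to 0.09). The 7 lower calls of this group were also made under each of the 3 other scalings, by edgeR and by DESeq2.

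The 3 knockdown libraries of KYSE-410 were not alike in this group. In replicate 1, 7 of the 8 fatty acid genes were higher than in replicate 2, with a median difference of 0.39 on the log2 scale, while 44.6% of all genes tested were higher in replicate 1. Replicate 1 was also above replicate 3 for 7 of the 8, with a median difference of 0.22. The residual INPPL1 level was 44.7, 37.3 and 39.1 CPM in replicates 1 to 3, so replicate 1 held the most INPPL1, and whether this bears on the fatty acid genes was not tested. The control libraries differed in this group too, by less. In siCT replicate 1, 0 of the 8 genes were higher than in replicate 2 and 1 of 8 higher than in replicate 3, with median differences of -0.13 and -0.09. Among the sterol enzymes, 10 of 18 were higher in siSHIP2 replicate 1 than in replicate 2, with a median difference of 0.04, and 5 of 18 higher than in replicate 3. Replicate 1 was above replicate 2 for 5 of the 6 regulators and carriers and 5 of the 5 export and storage genes as well.

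**Figure D2:**
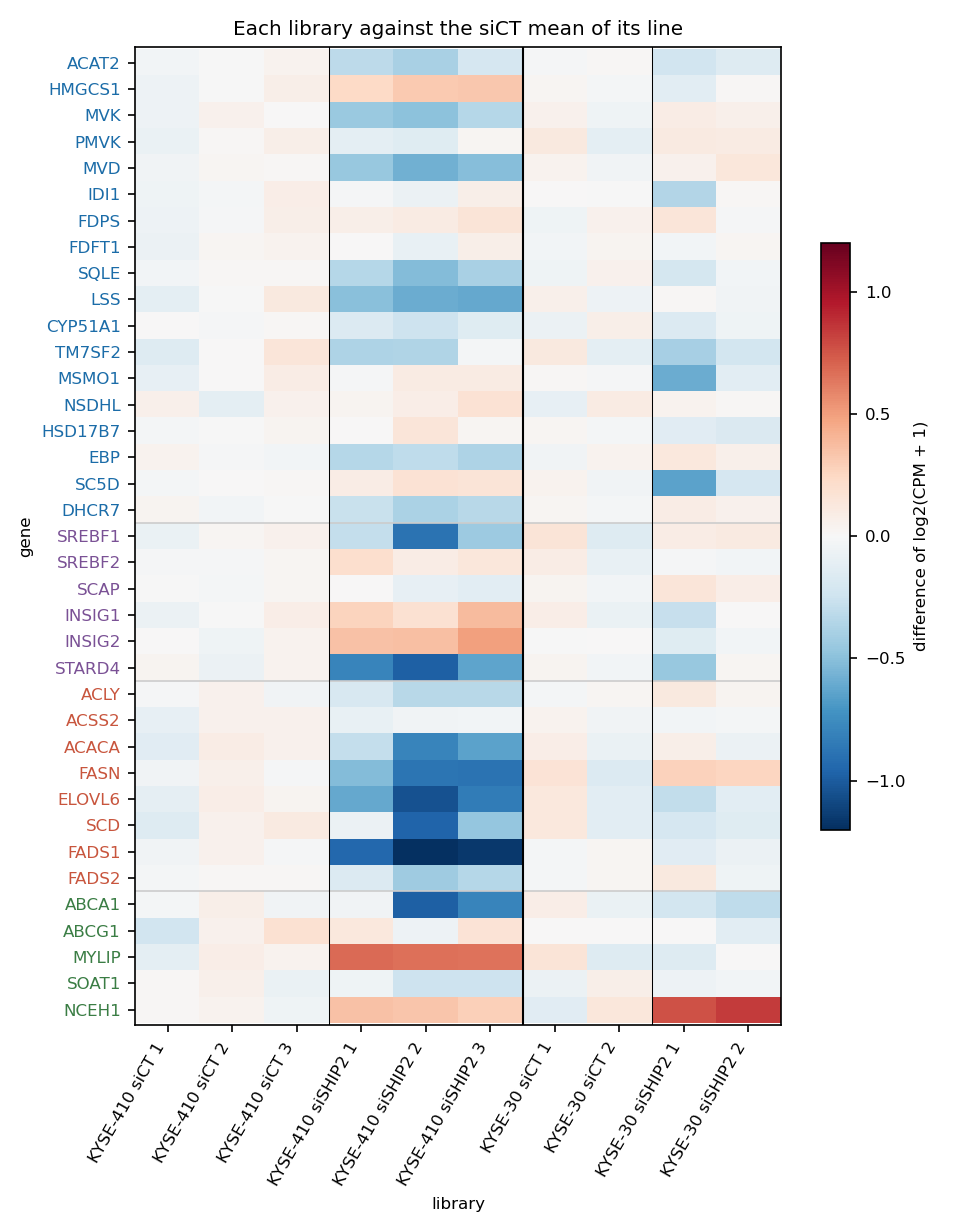
Difference of log2(CPM + 1) between each of the 10 libraries (columns) and the mean of the siCT libraries of its line, for the 37 genes (rows, names coloured by role, red higher and blue lower, colours capped at the ends of the bar). In KYSE-410 the fatty acid rows are blue in all siSHIP2 libraries except ACSS2 and, in replicate 1, SCD, and they are palest in replicate 1, and in KYSE-30 only the NCEH1 row is strongly coloured in both siSHIP2 libraries.

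Among the sterol enzymes of KYSE-410, those lowered by siSHIP2 lay at the start, the middle and the end of the pathway, with steps without a call between them. LSS (ENSG00000160285, chromosome 21, 46188141 to 46228824 of GRCh38), which closes squalene epoxide into lanosterol, stood at 27.7, 29.98 and 32.6 CPM with siCT and 20.9, 19.6 and 19.2 CPM with siSHIP2. All siSHIP2 libraries of LSS were lower, at 66.2% of the control mean (log2 -0.57, SE 0.064, limma adjusted p = 2.12e-06). MVD, the mevalonate diphosphate decarboxylase, went from 31.4, 32.9 and 32.5 CPM to 23.3, 21.3 and 22.4 CPM (log2 -0.51). MVK, the mevalonate kinase, went from 50.7, 55.0 and 53.2 CPM to 38.7, 37.4 and 41.5 CPM (log2 -0.43), and PMVK, the kinase between them in the pathway, was not called at 13.7, 14.7 and 15.3 and then 13.3, 13.0 and 14.8 CPM. Thus 2 of the 3 enzymes that turn mevalonate into isopentenyl diphosphate fell.

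SQLE, the squalene epoxidase that acts just before LSS, went from 193, 199 and 199 CPM to 155, 137 and 149.96 CPM, 74.9% of the control mean. EBP, the isomerase that moves a sterol double bond, went from 74.6, 71.6 and 70.6 CPM to 56.7, 58.4 and 55.5 CPM. DHCR7, the reductase that makes cholesterol from its direct precursor, went from 122, 116 and 119 CPM to 98.3, 91.2 and 94.1 CPM. In all 3 the groups were apart, with log2 fold changes of -0.42, -0.34 and -0.33. ACAT2, a cytosolic thiolase that joins acetyl-CoA units at the entry of the pathway, fell by 0.30 and CYP51A1, the lanosterol demethylase, by 0.18 on the log2 scale. HMGCS1, the synthase that acts directly after ACAT2, moved the other way, from 192, 199 and 210.1 CPM to 237, 249 and 251 CPM. It was the only sterol enzyme that rose (122% of the control mean, log2 0.29, SE 0.052, limma adjusted p = 0.000216), and its call was made under every alternative run.

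The other 9 sterol enzymes were not called in KYSE-410. Those with the narrowest intervals were FDFT1, the squalene synthase, with a 95% interval of the log2 fold change of -0.11 to 0.11, and FDPS, which makes farnesyl diphosphate, with -0.01 to 0.22. IDI1, the isopentenyl diphosphate isomerase, lay at -0.01, and the demethylation enzymes MSMO1, NSDHL and HSD17B7 lay at 0.06, 0.10 and 0.06. SC5D, a desaturase late in the pathway, lay at 0.14 with higher values in all 3 siSHIP2 libraries, and TM7SF2, a sterol reductase, lay at -0.25 with overlapping libraries. TM7SF2 was called lower under the 3 other scalings and by edgeR and DESeq2. For several genes the annotation places another expressed gene over part of the same sequence, and no source used here states whether counting used the strand. These pairs include ACAT2 with TCP1, MVK with MMAB, FDPS with RUSC1-AS1, HMGCS1 with AC114947.2, IDI1 with IDI2-AS1, ACLY with AC125257.2, SREBF1 with RAI1, TM7SF2 with VPS51, and FADS2 with both FADS1 and FEN1. At lower levels they include LSS with AP001469.1 (mean 6.04 CPM), SREBF2 with SREBF2-AS1 (6.755 CPM), CYP51A1 with CYP51A1-AS1 (1.36 CPM) and STARD4 with STARD4-AS1 (0.73 CPM). A share of the reads of all these genes may be lost or misplaced. HSD17B7 (mean 11.2 CPM) has a transcribed pseudogene, HSD17B7P2, at a mean of 2.10 CPM, and its value is uncertain for that reason.

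Regulators of the pathway split by gene. SREBF1, whose SREBP favours fatty acid genes, went from 62.0, 66.3 and 68.0 CPM to 53.5, 34.9 and 48.0 CPM with siSHIP2 in KYSE-410. It fell to 69.5% of the control mean (log2 -0.54, SE 0.112, limma adjusted p = 0.000828), with no overlap and the lowest value in replicate 2. SREBF2, whose SREBP favours sterol genes, went from 144, 144 and 147 CPM to 167, 154 and 159.6 CPM and rose by 0.14 with an adjusted p of 0.0302 in limma. That small rise was called in 10 of 21 alternatives and under none of the 3 other scalings, where SREBF2 lay no lower than 0.03. SCAP, the SREBP escort, was not called (log2 -0.08), but was called lower under the 3 other scalings, by edgeR and by DESeq2.

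INSIG2, which holds SCAP and SREBP back, went from 24.0, 23.0 and 24.5 CPM to 30.6, 30.8 and 33.9 CPM (log2 0.40, limma adjusted p = 0.000112). Its relative INSIG1, which is itself an SREBP target, went from 35.7, 37.4 and 39.6 CPM to 45.5, 42.7 and 49.3 CPM (log2 0.28, limma adjusted p = 0.0068). Both rose with groups apart, but the call of INSIG1 was lost with TMM, with relative log expression, by edgeR and by DESeq2, where its fold change stayed above 0. STARD4, a soluble sterol carrier, went from 6.35, 5.85 and 6.396 CPM to 3.15, 2.65 and 3.65 CPM. This was 50.8% of the control mean (log2 -0.80, SE 0.124, limma adjusted p = 5.75e-05), the lowest share among the 24 genes of sterol synthesis, regulation and transfer.

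Export and storage genes had no common direction in KYSE-410. MYLIP (ENSG00000007944, chromosome 6, 16129125 to 16148248 of GRCh38), the ubiquitin ligase that marks lipoprotein receptors for degradation, went from 42.2, 48.4 and 47.2 CPM to 73.9, 73.0 and 72.6 CPM. The siSHIP2 libraries of MYLIP were close together and far above the control, at 159% of its mean (log2 0.66, SE 0.079, limma adjusted p = 3.92e-06), the highest of the 37 fold changes. ABCA1, the pump that loads cholesterol onto apolipoproteins, gave 6.65, 7.14 and 6.55 CPM with siCT and 6.55, 2.95 and 3.497 CPM with siSHIP2. Replicates 2 and 3 were low and replicate 1 equalled the lowest control, and the lower call of ABCA1 (log2 -0.60, SE 0.173, limma adjusted p = 0.00846) was lost without siSHIP2 replicate 2 (log2 -0.42) and with the line fitted alone. ABCG1, the other pump, was not called, at 5.45, 6.85 and 7.59 CPM and then 7.30, 6.25 and 7.49 CPM. MYLIP and ABCA1 are both known targets of liver X receptors, and they moved in opposite directions.

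NCEH1 (ENSG00000144959, chromosome 3, 172630249 to 172711218 of GRCh38), a hydrolase that frees cholesterol from its esters, went from 87.4, 89.2 and 83.4 CPM to 111, 109 and 106 CPM in KYSE-410 (log2 0.32, limma adjusted p = 0.000408). SOAT1, which makes cholesteryl esters, went from 36.3, 37.3 and 33.9 CPM to 34.5, 29.98 and 30.02 CPM, with overlapping libraries. It was called lower (log2 -0.18, limma adjusted p = 0.0405), and the call was made in 13 of 21 alternatives.

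**Figure D3:**
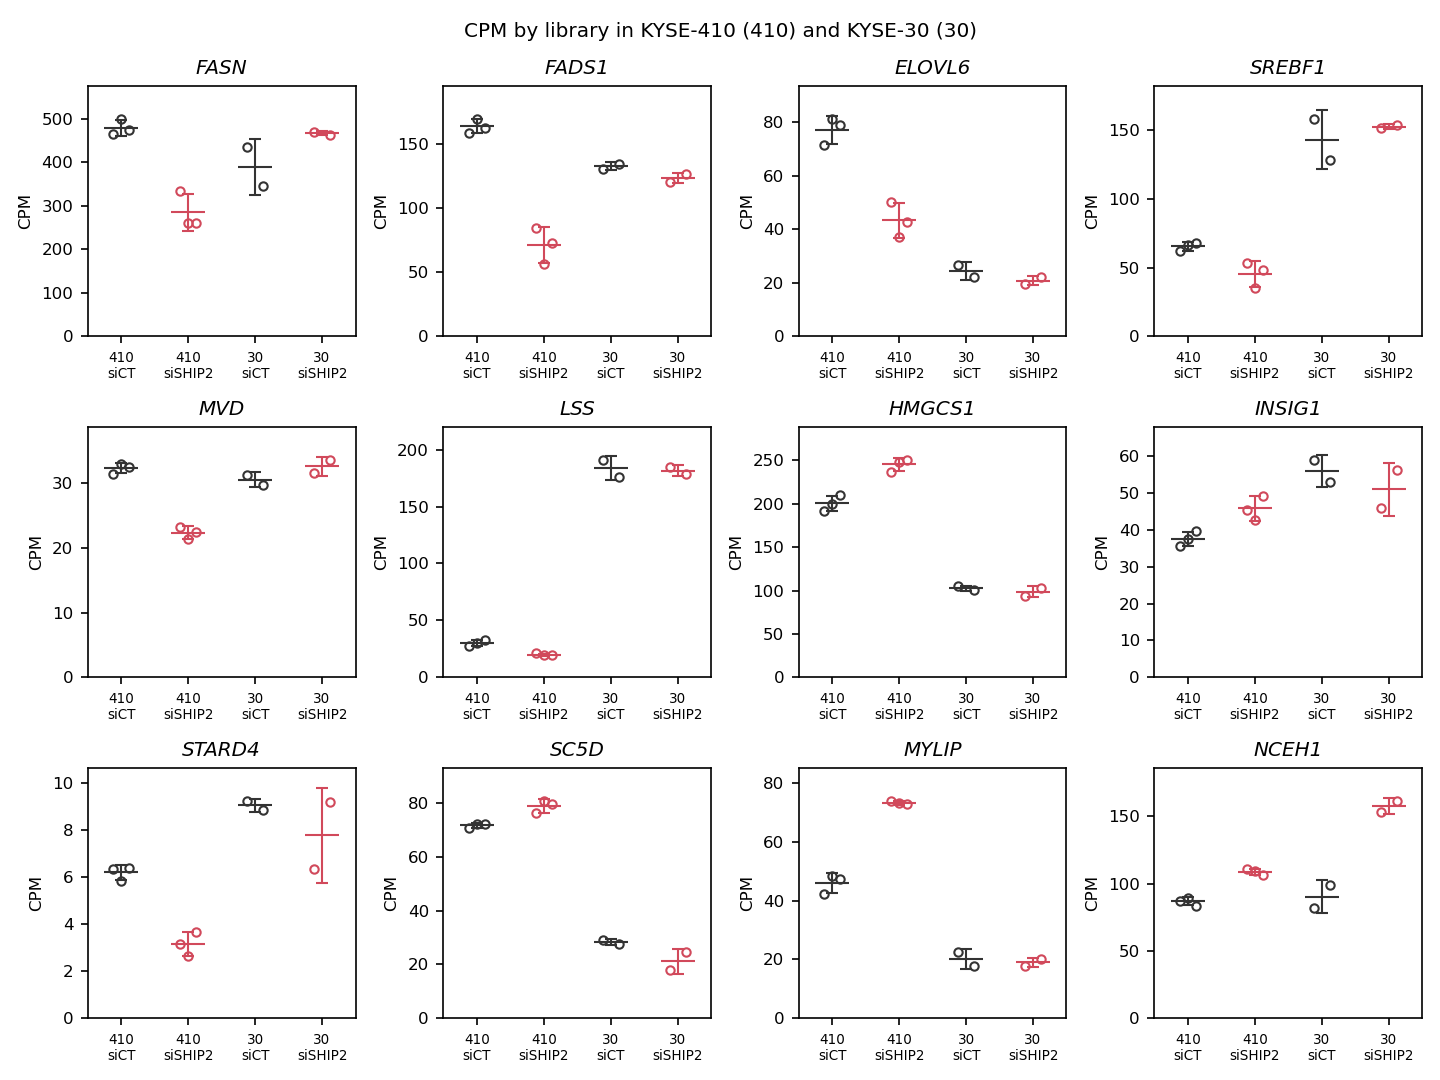
CPM of 12 of the genes in each library (points), with group mean and SD (bars), in KYSE-410 (410) and KYSE-30 (30) with siCT (black) or siSHIP2 (red); each axis starts at 0 and has its own scale. FADS1, FASN, ELOVL6, LSS, MVD and STARD4 are lower with siSHIP2 in KYSE-410 with no overlap, MYLIP is higher there, and NCEH1 is higher in both lines.

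Promoters of these genes are shown because the genes are read out through a small set of known motifs. RefSeq promoter windows of GRCh38.p14 were matched for 32 of the 37 genes, and the 250 bases before each start site were searched on both strands. ACAT2, FDFT1, SQLE, FASN and ABCG1 had no window and were not searched. The sterol regulatory element written as TCACNCCAC occurred in SREBF2 alone (3.12% of 32 genes, against 1.09% of 27305 genes with a window), and the palindrome TCACGTGA in INSIG1 alone (3.12% against 1.04%). Each was searched in this spelling only, so no match does not show that a gene lacks such an element. The CCAAT motif, bound by NF-Y, a partner of SREBP, occurred in 23 genes (71.9%, against 37% of all genes), and the GC motif GGGCGG in 30 (93.8% against 46.2%). The shares of all genes were not limited to genes expressed here, as the 37 are. A gene with more than 1 window counted when any of them matched. The gaps are therefore not shown to be particular to lipid genes. In IDI1 and NSDHL a CCAAT match on either strand overlapped one on the other. The direct repeat known as the liver X receptor element had no match in the 32 windows and occurred in 0.0183% of all, and no match says nothing about the receptor. Each line gives 30 bases in the direction of the gene, the motif in capitals (ATTGG is CCAAT on the other strand), for genes whose values are described above.
SREBF2: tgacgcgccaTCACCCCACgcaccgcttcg
INSIG1: gccgggcaggcTCACGTGAtgcgggccccg
HMGCS1: ctaccggccgcgATTGGctgtgggagccac
MVD: ggctcgcacgggCCAATcctgtggtagcgc
LSS: cgcggcgctctgATTGGttgcgtgggcgtc
DHCR7: caggctcctcgaCCAATcacggggcgcgga
STARD4: ctcccgcgccagCCAATccgaacaagcgca
ACLY: gaacgcgtgtggCCAATcgcggggccgttc
SCD: aattcccttcggCCAATgacgagccggagt
MYLIP: agggaggccgtgATTGGcggggacccgagc
NCEH1: acgcagcctctgATTGGctcctgggcttat
The lines come from chromosome 22 (SREBF2, chr22:41832962-41832991, plus strand), 7 (INSIG1, chr7:155297811-155297840, plus), 5 (HMGCS1, chr5:43313495-43313524, minus), 16 (MVD, chr16:88663159-88663188, minus), 21 (LSS, chr21:46228907-46228936, minus), 11 (DHCR7, chr11:71448470-71448499, minus), 5 (STARD4, chr5:111512648-111512677, minus), 17 (ACLY, chr17:41919028-41919057, minus), 10 (SCD, chr10:100347035-100347064, plus), 6 (MYLIP, chr6:16129006-16129035, plus) and 3 (NCEH1, chr3:172711094-172711123, minus). The CCAAT motif was found in genes of either direction, namely 5 of the 6 that rose in KYSE-410, 10 of the 16 that fell and had a window, and 8 of the 10 without a call. A match is a stretch of letters and not evidence of binding.

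In KYSE-30 the same siRNA left most lipid genes without a detectable change. Of the 37 genes 1 rose and 1 fell, where 0.811% of all genes tested rose and 1.54% fell, and 6 of the 37 (16.2%) had an unadjusted p under 0.05, against 17.8% of all genes tested. NCEH1 rose from 81.6 and 98.99 CPM to 153 and 162 CPM, with both siSHIP2 libraries above both controls. The level was 174% of the control mean (log2 0.80, SE 0.076, limma adjusted p = 0.000133), and it was called in 20 of 21 alternatives, the exception being KYSE-30 fitted alone, in which limma called none of all 20466 genes (2834 had an unadjusted p under 0.05). SC5D fell from 29.2 and 27.5 CPM to 17.8 and 24.5 CPM (log2 -0.42, SE 0.101, limma adjusted p = 0.0415). Its call was made in 9 of 21 alternatives, and leaving out a siSHIP2 library moved the fold change to between -0.64 and -0.20, since replicate 1 was the lower one.

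Over the 18 sterol enzymes that KYSE-30 library was not generally low, with 8 of 18 higher than in replicate 2, or 44.4% against 47.1% of all genes tested. A few sterol genes beside SC5D were low in it. MSMO1 gave 82.0 and 80.05 CPM with siCT and 53.3 and 74.2 CPM with siSHIP2, IDI1 gave 69.5 and 69.5 and then 54.4 and 70.0 CPM, and STARD4 gave 9.24 and 8.84 and then 6.34 and 9.20 CPM. None of these 3 was called, and in IDI1 and STARD4 the second siSHIP2 library reached the control level. Without replicate 2, and so resting on replicate 1 alone, 3 genes were called lower, IDI1 and MSMO1 in addition to SC5D. None of the 8 fatty acid genes was called in KYSE-30 by limma, edgeR or DESeq2, and 1 of them, FASN, had an unadjusted p under 0.05 in limma. FASN gave 435 and 344 CPM with siCT and 470.2 and 463 CPM with siSHIP2, so its 2 knockdown libraries lay above both controls (95% interval of the log2 fold change 0.04 to 0.50). FADS1 gave 131 and 135 and then 121 and 126 CPM, with a 95% interval of -0.35 to 0.14. MYLIP, at 22.4 and 17.8 CPM and then 17.9 and 20.1 CPM, overlapped between the groups (log2 -0.07). With 2 libraries a group, a missing call does not show that a gene stayed the same.

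The response was tested for a difference between the lines by the interaction term, as the log2 fold change in KYSE-30 minus that in KYSE-410. Of the 37 genes 15 lay above 0 and 6 below with a call, where 12.9% of all genes tested were called above and 19.5% below. Over all genes tested, the balance of these calls turned with the scaling. In the deposited scale 39.7% of the calls lay above 0. The share was 57.9% with TMM, 55.2% with relative log expression and 55.5% with upper quartile scaling. Of the 8 fatty acid genes 6 were called, all above 0. The difference was 1.103 for FADS1 (SE 0.151, limma adjusted p = 6.51e-05) and 1.03 for FASN (SE 0.140, limma adjusted p = 6.37e-05), and it was 0.62 for ELOVL6, 0.57 for ACACA, 0.36 for ACLY and 0.34 for FADS2. SCD (0.32) and ACSS2 (0.02) were not called. Of these, the differences of ACLY, FASN and FADS1 were called under every alternative run, and that of FADS2 under 11 of 20.

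Among the sterol enzymes the difference was called above 0 for 6, namely MVD (0.61), LSS (0.55), MVK (0.50), EBP (0.43), DHCR7 (0.40) and SQLE (0.30). The first 5 of these held under every alternative run. It was called below 0 for SC5D (-0.56), MSMO1 (-0.42) and HMGCS1 (-0.35), and MSMO1 was called in 8 of 20 alternatives. SREBF1 (0.63) and STARD4 (0.59) lay above 0, and INSIG2 (-0.48) and INSIG1 (-0.42) below. Of the storage and uptake genes MYLIP (-0.74, limma adjusted p = 0.000357) and NCEH1 (0.48, adjusted p = 0.00152) were called, so NCEH1 rose more in KYSE-30 than in KYSE-410. Single KYSE-30 libraries decided several of these differences. Without siSHIP2 replicate 1 those of MSMO1 (-0.19), INSIG1 (-0.27), SREBF1, ACACA and FADS2 were not called, and without siSHIP2 replicate 2 those of STARD4 (0.35), SQLE (0.20), SREBF1 and ELOVL6 were not. Without siCT replicate 1 SQLE, MSMO1, INSIG1, STARD4 and FADS2 were not called, and without siCT replicate 2 MSMO1, SREBF1, STARD4, ACACA, ELOVL6 and FADS2 were not. Without 1 of the KYSE-410 libraries only calls of MSMO1, STARD4, FADS2 and SQLE were lost. INPPL1 itself differed by 0.75 in the same test, as its level fell further in KYSE-410. The part of knockdown depth in these differences was not tested.

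With siCT alone the lines already differed in most of these genes, as in most genes tested (15539 of 20466 called). Relative to KYSE-30, 19 of the 37 genes were higher and 12 lower in KYSE-410, where 37.2% of all genes tested were higher and 38.7% lower. These contrasts use the same siCT libraries as the responses above, so the values are set side by side and not correlated. LSS stood at 27.7, 29.98 and 32.6 CPM in KYSE-410 and 191 and 176 CPM in KYSE-30 (log2 -2.57, SE 0.071, limma adjusted p = 5.93e-15). DHCR7 stood at 122, 116 and 119 CPM and 493 and 475 CPM (log2 -2.01). KYSE-410 thus held far less transcript of 2 enzymes that close and finish the sterol ring system, and FDPS (-0.65), NSDHL (-0.74) and PMVK (-0.52) were lower too.

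The other 10 sterol enzymes with a call were higher in KYSE-410, led by TM7SF2 (log2 1.79, with 14.7, 16.5 and 18.3 CPM against 4.50 and 3.65 CPM), SC5D (1.31) and HMGCS1 (0.96). Fatty acid genes divided evenly, 4 higher and 4 lower, though 2 were higher by DESeq2. ELOVL6 was higher in KYSE-410 (71.4, 81.4 and 79.2 CPM against 26.7 and 22.1 CPM, log2 1.63), as was ACACA (1.12), while ACSS2 (-1.07), SCD (-0.999) and FADS2 (-0.99) were lower. FASN (0.31), FADS1 (0.30) and ACLY (-0.17) differed less, and their calls depended on the setting, with FASN at 0.14 and not called without KYSE-30 siCT replicate 2 and at 0.48 without KYSE-30 siCT replicate 1. SREBF1 was lower in KYSE-410 (62.0, 66.3 and 68.0 CPM against 158 and 128 CPM, log2 -1.11), and SREBF2 did not pass the test (-0.02).

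Of the 5 genes of export, uptake control and storage, 4 were called higher in KYSE-410 and 0 lower, where 37.2% of all genes tested were higher. Among the 4, ABCG1 passed the filter on low values only through KYSE-410, so its call lends this count no support. ABCG1 stood at 5.45, 6.85 and 7.59 CPM in KYSE-410 and at 0.150 and 0.150 CPM in KYSE-30, where it was at the floor of 3 scaled counts (0.15 CPM), so no fold is given. ABCA1 stood at 6.65, 7.14 and 6.55 CPM against 2.45 and 2.10 CPM (limma adjusted p = 1.87e-05) and MYLIP at 42.2, 48.4 and 47.2 CPM against 22.4 and 17.8 CPM (log2 1.16). SOAT1 was called by a small margin (0.18, called in 11 of 20 alternatives), and NCEH1 was not (-0.05), except lower (-0.19) without KYSE-30 siCT replicate 1.

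**Figure D4:**
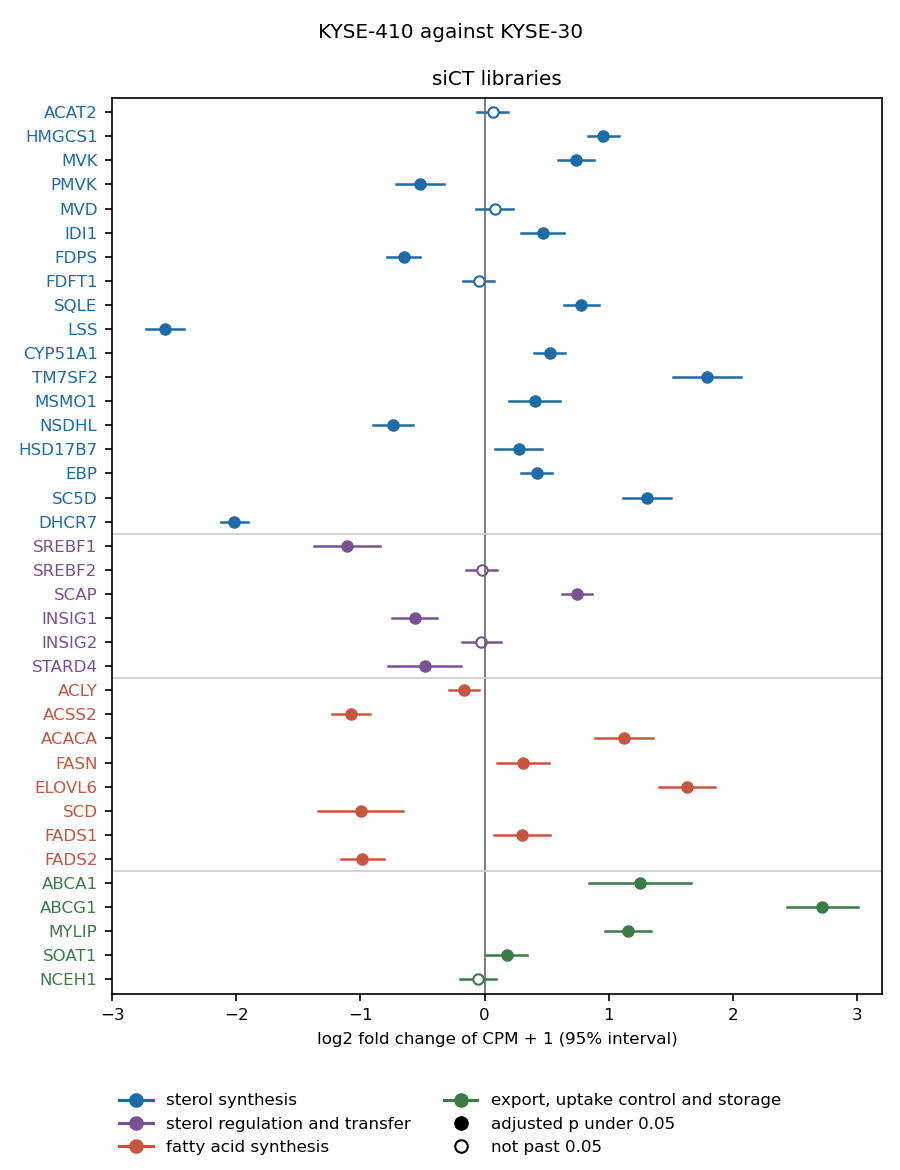
Log2 fold change of CPM + 1 in KYSE-410 (3 libraries) against KYSE-30 (2 libraries), both with siCT, for the 37 genes. Points are limma estimates, bars 95% intervals, colours the roles, and filled points have an adjusted p under 0.05: LSS and DHCR7 lie at -2.57 and -2.01, and 4 of the 5 export, uptake and storage genes have a filled point above 0; the point of ABCG1 rests on KYSE-30 levels at the floor of detection.

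Other genes of these pathways were read from 3 further lists. With siSHIP2 in KYSE-410, 30.6% of all genes tested rose and 19.3% fell. Of 15 accessory genes of sterol metabolism, 4 rose (26.7%) and 6 fell (40%) there. The prenyl synthase GGPS1 (0.72), the cytochrome reductase CYB5R3 (0.29) and DHDDS (0.25), of dolichol synthesis, rose on the log2 scale. The lipoprotein receptor SCARB1 (-0.98), NUS1 (-1.06), the partner of DHDDS, and the protease MBTPS1 (-0.64), which cuts SREBP, fell. Of 24 accessory genes of fatty acid metabolism, 4 rose (16.7%) and 9 fell (37.5%). The mitochondrial carboxylase ACACB (0.39), the acyltransferase GPAM (0.27) and the elongation enzyme HSD17B12 (0.18) rose, and the acyl-CoA synthetase ACSL5 (-0.79), the elongation enzyme HACD2 (-0.47) and the acyltransferase AGPAT2 (-0.53) fell.

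Of 14 genes of liver X receptor signalling and lipid storage, 11 were tested, and 2 rose (18.2% of the 11) and 4 fell (36.4%) in KYSE-410. The sterol transfer gene OSBPL2 (0.42) and the retinoid receptor RXRB (0.76) rose, while NR1H3 (-0.62), a liver X receptor, its target LPCAT3 (-0.37), a phospholipid acyltransferase, and the retinoid receptor RXRA (-0.48) fell. The medians of the 3 lists were -0.05, -0.08 and 0.03, against 0.07 over all genes tested. Values of these lists are given in the deposited scale only, and TMM scaling shifts the median of all genes by -0.11, which matters for the smallest changes. In KYSE-30, 2 genes of these lists were called, both lower. Both are among the 24 accessory genes of fatty acid metabolism (8.33%, where 1.54% of all genes tested fell). They were ME1 (-0.38), the malic enzyme that supplies NADPH, and SCD5 (-0.48), a desaturase.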

How the data were processed

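Expression of 10 libraries was measured by RNA sequencing of Ovation Solo libraries. STAR 2.5.3a, HTSeq and the build hg38 are named in the submitters' processing notes. The deposited table gives CPM for 58302 genes, and its values are whole multiples of a step of about 0.05 CPM (100% within 0.05 of a step). Scaled counts were therefore inferred from the values and used only in alternatives, for the floor and for the estimate of depth. The floor is 3 such counts, about 0.15 CPM. This floor covers counting error only, and the 95% intervals, from limma, cover the spread between libraries. The main test was limma 3.58.1 (R 4.3.3) on log2(CPM + 1) of the 20466 genes that reached 0.5 CPM in 2 or more libraries. Its design held 4 group means and used all libraries, and p-values were adjusted by Benjamini-Hochberg at 0.05. Because the unit is CPM, no count test served as the main one. Alternatives were TMM, relative log expression and upper quartile scaling, filters of 0 and 10 CPM, a smaller pseudocount (0.1), the lines fitted apart, the replicate block, leaving out each library, and edgeR 4.0.16 and DESeq2 1.42.0 on the whole numbers. The members, roles and the lists of sterol accessory, fatty acid accessory, liver X receptor and storage, and cell marker genes were chosen with earlier results of these data known. All 37 members are named, INPPL1 as the check of the labels, and from each further list up to 3 called genes per direction with the smallest adjusted p in KYSE-410 and each called gene in KYSE-30. Positions are from GENCODE 29. Promoters are from RefSeq (GRCh38.p14). The procedure was tested on simulated data. Some cholesterol genes are not reported here.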

Additional observations from a re-analysis of the deposited data

Results flagged for a closer look

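For 21 of the 37 genes the response to siSHIP2 differed between the lines by the interaction term of limma with Benjamini-Hochberg adjustment (adjusted p under 0.05, 4 group means, 10 libraries). The differences below are log2 fold changes in KYSE-30 minus those in KYSE-410. In 15 genes the value was above 0, and the fatty acid genes were FADS1 (1.103), FASN (1.03), ELOVL6 (0.62), ACACA (0.57), ACLY (0.36) and FADS2 (0.34). The sterol enzymes above 0 were MVD (0.61), LSS (0.55), MVK (0.50), EBP (0.43), DHCR7 (0.40) and SQLE (0.30), and the other genes above 0 were SREBF1 (0.63), STARD4 (0.59) and NCEH1 (0.48). Below 0 lay MYLIP (-0.74), SC5D (-0.56), INSIG2 (-0.48), MSMO1 (-0.42), INSIG1 (-0.42) and HMGCS1 (-0.35). Within the lines, NCEH1 was called in both, SC5D in KYSE-30, MSMO1 in neither and the other 18 in KYSE-410. With 2 or 3 libraries a group, the criterion on the gap of 1 library to the others, meant for 4 to 10, was not applied, and fits without single libraries stand in its place.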

How the results depend on the processing

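Of 3022 values of single genes under the alternatives, 2876 kept their direction and side of the threshold, 118 lost a call, 28 gained one and 0 reversed a called direction. Of the 2876, 98 had the opposite sign with no call in either fit. Members called lower with siSHIP2 in KYSE-30 (1, SC5D) became 0 with TMM scaling, 0 with no filter, 0 with a pseudocount of 0.1, 0 with each line fitted alone and 2 with DESeq2, and members called higher there (1, NCEH1) became 0 with each line alone. In that fit 2 of the 37 genes had an unadjusted p under 0.05, and edgeR and DESeq2 called NCEH1. Differences of response below 0 became 3 with TMM scaling, from 6. Over all genes such calls went from 3993 to 2463, and the median difference of all genes moved by 0.10 on the log2 scale. The cause of these changes in calls was not tested. When each library was left out in turn, the counts ranged from 5 to 7 higher and 17 to 19 lower in KYSE-410, from 1 to 1 higher and 0 to 3 lower in KYSE-30, from 10 to 18 above and 4 to 7 below for the difference of response, and from 16 to 19 higher and 11 to 13 lower in KYSE-410 against KYSE-30 with siCT. Where that left 1 library in a group, it was assumed to vary like the others. Over all genes, calls in KYSE-30 went from 482 to 160 with TMM scaling, 78 with no filter, 0 with each line alone and 14 to 812 when a library was left out.

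No pairing of libraries by replicate number was seen, but so few libraries cannot exclude one. Deviations of same-numbered libraries correlated at 0.04, -0.16 and 0.09 in KYSE-410, where differently numbered ones ranged from -0.26 to 0.25. In KYSE-30 same-numbered libraries correlated at -0.12, and with 2 libraries a group the crossed numbers give 0.12 by construction. These values are across genes, which are not independent replicates. With the replicate number as a block, 6 genes were higher and 19 lower in KYSE-410, 1 higher and 0 lower in KYSE-30, 14 above and 6 below for the difference, and 18 higher and 10 lower between the lines, and all calls in KYSE-30 went from 482 to 71. With the KYSE-30 numbers crossed, an alternative chosen after seeing the data, 1 gene was higher and 1 lower in KYSE-30 and all calls there were 637.

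Depth limits ABCG1 in KYSE-30, where it stood at 0.15 and 0.15 CPM with siCT and 0.15 and 0.05 CPM with siSHIP2, so few counts stand behind each value. ABCA1, STARD4, TM7SF2 and HSD17B7 were under 20 CPM in every library, as were ABCG1 and PMVK in KYSE-410. The lowest value among these was 1.65 CPM (ABCA1 in KYSE-30), above the floor of about 0.15 CPM. How far depth limits these genes was not tested. Other genes, such as ACSS2 in KYSE-410, were under 20 CPM in some libraries. Counts over the 37 genes moved by no more than 1.5 times under the other settings, but counts by role, of few genes each, moved more. In KYSE-410 the regulators and carriers called higher went from 3 to 1 with TMM, relative log expression, edgeR and DESeq2, those called lower from 2 to 1 with the filter of 10 CPM (which left STARD4 untested), the sterol enzymes called higher from 1 to 2 with the line alone, and the export and storage genes called lower from 2 to 1 with either other filter and 0 with the line alone. For the difference of response, sterol enzymes below 0 went from 3 to 1 with TMM, and regulators and carriers from 2 above 0 to 0 with no filter and 1 with the filter of 10 CPM, and from 2 to 1 below 0 with the 3 scalings, no filter and DESeq2. Fatty acid genes called higher between the lines went from 4 to 2 with DESeq2 and with the crossed block, and export and storage genes from 4 to 2 with the filter of 10 CPM.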
